A study of Homo sapiens with 23 samples.

Results

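The genes described here are 43 human genes of the integrated stress response and the unfolded protein response. They are *ATF4* with the genes for amino acid synthesis, amino acid transport and tRNA charging that it is known to control, and 4 genes of the endoplasmic reticulum (ER) stress response. They were chosen by symbol, each symbol matched to exactly 1 of the 57875 Ensembl gene identifiers listed per sample, and 42 of the 43 passed the filter on low counts, in a table of 22842 genes tested. Their steady state RNA levels were compared among 5 lines of HCT116, a human colorectal carcinoma cell line, with 3 biological replicates per line. They were wild-type cells and knockouts of *AGO1* alone, of *AGO2* alone, of both (*AGO1/2*) and of these with *AGO3* (*AGO1/2/3*), which lack up to 3 of the argonaute genes whose proteins carry microRNAs. The study made the knockouts to ask how loss of these proteins changes steady state mRNA levels. Each knockout genotype is a single CRISPR-edited line made from the same parental HCT116 cells, while the wild-type cells were not edited. Genotype and line therefore cannot be told apart. All lines were grown in the same serum-supplemented medium with no added stress. In the study, every knockout line except that of *AGO1* alone grew more slowly than wild-type cells, and the triple knockout line grew slowest. The part of growth rate or culture density in the members' levels was not tested. Total RNA after removal of ribosomal RNA was sequenced, and levels are given in CPM, the counts of a gene relative to the TMM-scaled total of its library, always in the order of replicates 1, 2 and 3.

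ATF4 is a transcription factor that is translated when the initiation factor eIF2 alpha is phosphorylated, which happens when amino acids run short, when heme is lacking, when double-stranded RNA is sensed or when unfolded proteins gather in the ER. It then switches on enzymes, transporters and tRNA synthetases that restore the supply of amino acids, and regulators that end the response. Because ATF4 is controlled largely through translation, the RNA levels of its target genes are commonly used to follow its activity. The ER branch has further factors, XBP1 and ATF6, which raise chaperones such as the one encoded by *HSPA5*.

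The DNA elements through which these factors are known to act were looked up in the RefSeq promoter windows of GRCh38.p14, from 250 bases before to 50 bases after the start of each gene. The C/EBP-ATF response element (CARE), searched as TGATGNAAN on both strands, was found for 12 of the 36 members with a window, or 33.3%, and for 1215 of all 27305 genes, or 4.45%. The ER stress response element (ERSE), searched as CCAAT, then 9 bases, then CCACG, was found for 2 members, *HSPA5* and *XBP1*, and for 0.0916% of all genes. ERSE-II, searched as ATTGG, then 1 base, then CCACG, was found for *HERPUD1* and for 0.0696% of all genes. The members were chosen partly as known targets of these factors, so the higher shares are a description and not a test. The stretches below are shown for members whose levels in every sample are given further on, 5′ to 3′ on the strand of the gene, with the matching letters in capitals. Where the element was read on the other strand, its letters appear here as their reverse complement.
*ASNS*, chr7:97872458-97872487, minus strand: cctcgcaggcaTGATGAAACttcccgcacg
*CHAC1*, chr15:40953250-40953279, plus strand, element on the other strand: cctcccctgccGTTGCATCActcctgccag
*ATF3*, chr1:212565205-212565234, plus strand: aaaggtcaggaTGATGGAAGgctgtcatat
*AARS1*, chr16:70289676-70289705, minus strand, element on the other strand: cttttctcgcaGTTGCATCAgccaagttag
*HERPUD1*, chr16:56931954-56931983, plus strand, CARE on the other strand: agacgcggcggGTTGCATCAgcccgtgccc
*HERPUD1*, chr16:56932015-56932044, plus strand, ERSE-II: ccggacgccgATTGGGCCACGttgggagag
*HSPA5*, chr9:125241386-125241415, minus strand, ERSE: ccttcaCCAATCGGCGGCCTCCACGacggg
*XBP1*, chr22:28800598-28800627, minus strand, ERSE: cgctggCCAATCGCGGAGGGCCACGaccgt

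The CARE of *ASNS* begins 68 bases before the gene start used for its RefSeq window, and that of *CHAC1* 210 bases before. For both genes this start differs from the GENCODE gene bounds given further on, within which both stretches lie. *HERPUD1* was the member that held both kinds of element in its window, the CARE at 177 and ERSE-II at 117 bases before its start, without overlap. The other members with a CARE were *CEBPG*, *GARS1*, *NARS1*, *SLC1A4*, *SLC1A5*, *SLC3A2* and *SLC7A1*. A match shows only that these letters are present in the window, and *ATF4* itself, *TRIB3*, *DDIT4* and *PHGDH* are not among the genes with a match. As not all members had a window, a gene without a match may lack the element, hold it outside the window or not have been searched.

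Each sample held from 27709971 to 45271146 estimated counts over all genes, the most in *AGO2* knockout cells. The headers of the 3 *AGO2* knockout samples name a different mode of quantification, so that for this line mode and genotype cannot be told apart. *AGO1* RNA was lower in the 3 lines without *AGO1* (log2 fold changes of -1.89, -1.84 and -2.01), and *AGO3* RNA was lower in *AGO1/2/3* knockout cells (-1.12). *AGO2* RNA was lower in *AGO2* knockout cells (-0.51), not called in *AGO1/2* knockout cells (-0.26, adjusted p = 0.0924 in the edgeR test) and higher than wild type in *AGO1/2/3* knockout cells (0.40). As an edit need not lower the RNA, the *AGO2* RNA level does not check the label in the *AGO1/2* and *AGO1/2/3* lines. The study itself verified its knockout lines by DNA sequencing and found the targeted proteins absent by western blot. The epithelial markers *KRT8* (489.6 to 1218 CPM), *KRT18* and *KRT19* were abundant in all samples, while *CDH1* fell from 74.6 to 134 CPM in wild-type cells to 7.76 to 9.21 CPM in *AGO1/2/3* knockout cells. *CDH1* was also called lower without *AGO1* (-1.15) and *AGO1/2* (-1.66), and *CLDN4* without *AGO1* (-1.06). *EPCAM* was called lower without *AGO1* (-0.33), *AGO1/2* (-0.92) and *AGO1/2/3* (-1.74) and higher without *AGO2* (0.32). *KRT8* was called higher without *AGO1/2* (0.76) and *AGO1/2/3* (0.41), *KRT19* higher without *AGO1/2* (0.64) and *KRT18* lower without *AGO2* (-0.41). Markers of leukocytes, endothelium and fibroblasts summed over 8 genes to 28.4 to 34.9 CPM in wild-type cells, 16.8 to 24.2 CPM without *AGO1*, 14.7 to 16.7 CPM without *AGO2*, 20.4 to 25.6 CPM without *AGO1/2* and 28.8 to 31.8 CPM without *AGO1/2/3*. The most abundant of them, the collagen gene *COL1A1* (9.58 to 27.5 CPM), was called lower without *AGO1* (-0.96), *AGO2* (-1.17) and *AGO1/2* (-1.03) and not without *AGO1/2/3* (0.09). Others went other ways: *COL3A1*, at most 0.90 CPM, was called higher without *AGO1* (3.44) and *AGO1/2/3* (3.10). *CD68* (1.23 to 9.76 CPM) was called higher without *AGO1/2* (1.31) and lower without *AGO1/2/3* (-1.09). *PTPRC*, *PECAM1* and *DCN* were not called against wild type, and *CD3E* was at 0 in 13 of 15 samples. The part of these markers in the members' levels was not tested. In whole-cell RNA, fewer cells that express a gene and less of its RNA per cell cannot be told apart.

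The replicates within a line differed for these genes together, and this is given before any comparison because it bears on each of them. Wild-type replicate 3 was the lowest of the wild-type samples for 41 of the 42 members, while 32.2% of all genes tested were lowest in that sample. Wild-type replicate 2 was the highest for 38 of the 42. *AGO1* knockout replicate 1 was the lowest of its line for 40 members and *AGO1/2* knockout replicate 3 was the highest of its line for 39. The median over members of the log2 level, relative to each gene's wild-type mean, was 0.15, 0.71 and -0.75 in the wild-type samples and -0.66, 0.29 and -0.01 in the *AGO1* knockout samples. It was -0.998, -0.80 and -0.67 in *AGO2* knockout cells, -0.86, -0.84 and 0.02 in *AGO1/2* knockout cells, and -1.19, -1.26 and -1.16 in *AGO1/2/3* knockout cells. The wild-type, *AGO1* and *AGO1/2* lines therefore each held samples near or above the wild-type mean and samples well below it. All 3 samples of the *AGO2* and *AGO1/2/3* lines were at -0.67 or lower. What set these samples apart was not tested.

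**Figure D1:**
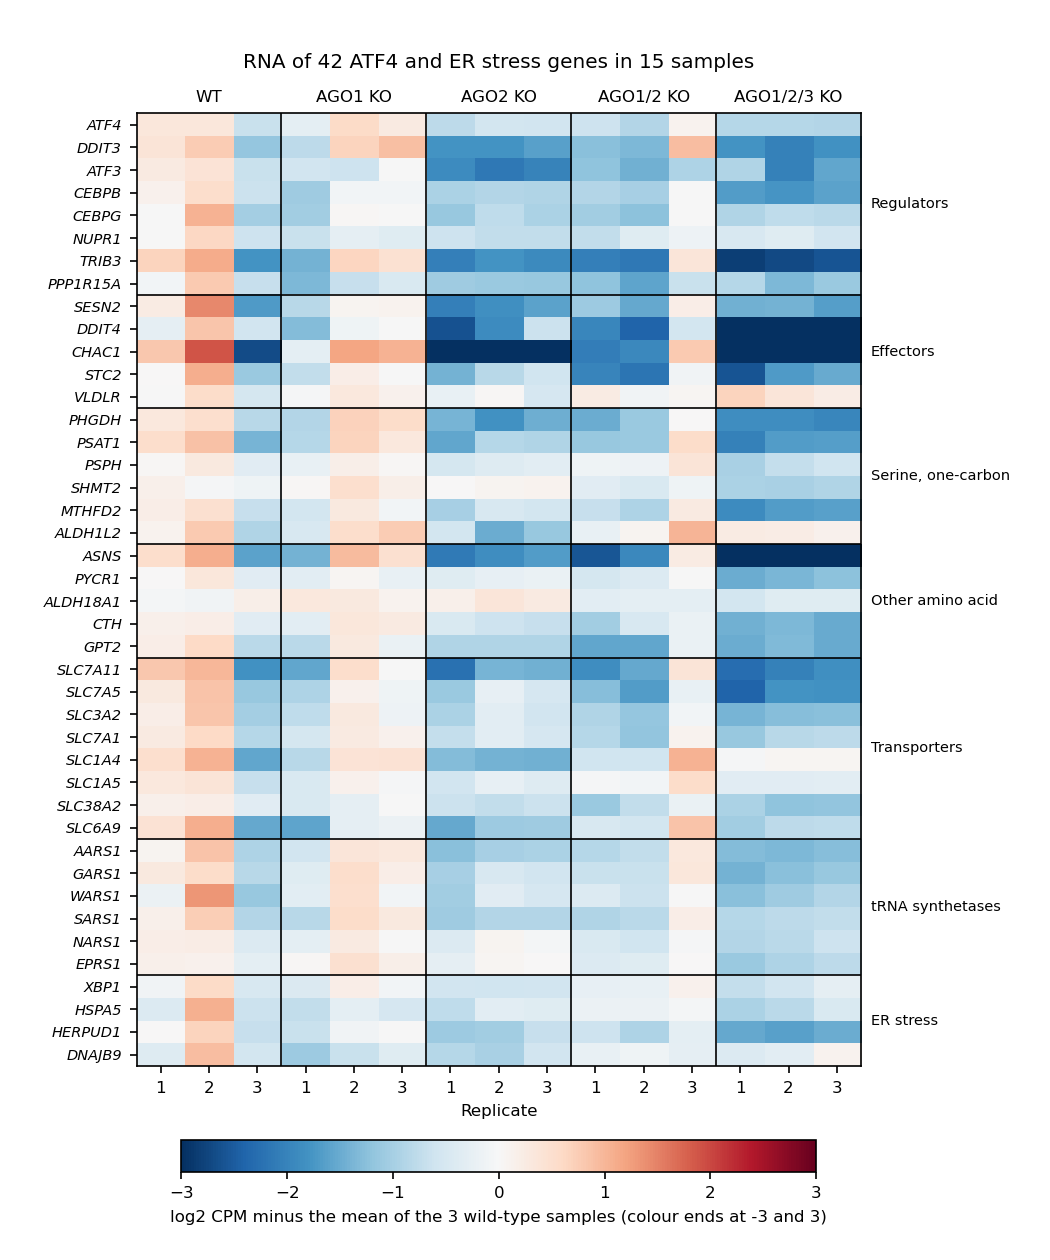
Heat map of 42 members (rows, grouped by role) in 15 samples (columns, replicates 1 to 3 of each line). Colour is log2 CPM minus the mean of the 3 wild-type samples, blue for lower and red for higher, with the colours ending at -3 and 3. Wild-type replicate 3 and *AGO1* knockout replicate 1 are blue within lines that are otherwise mostly pale or red, *AGO1/2* knockout replicate 3 is pale or red within a blue line, and all 3 *AGO1/2/3* knockout samples are blue for most genes.

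In *AGO1/2/3* knockout cells 33 of the 42 members tested were called lower than in wild-type cells and 0 were called higher, against 19.8% of all genes tested called lower and 20.3% called higher (40.1% in either direction). A gene was called when its adjusted p was at or under 0.05 in the quasi-likelihood test of edgeR, with Benjamini-Hochberg adjustment over the 22842 genes tested. The median log2 fold change of the members was -1.38, while that of all genes tested was -0.01. All 3 *AGO1/2/3* knockout samples lay below all 3 wild-type samples for 28 members, or 66.7%, and for 23.8% of all genes tested, while 0 members and 26.3% of all genes lay wholly above them. Of the 33 calls, 28 held under each of the 23 alternatives tried. The other 5, *HSPA5*, *SESN2*, *SLC7A1*, *WARS1* and *XBP1*, were lost without wild-type replicate 2 and, *SESN2* aside, under other alternatives too. With any single sample left out the number of members called lower ranged from 28, without wild-type replicate 2, to 38, without wild-type replicate 3.

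In *AGO2* knockout cells 18 of the 42 members were called lower and 0 higher, against 10.8% and 8.55% of all genes tested. The median log2 fold change was -0.97, and that of all genes was -0.02. The samples did not overlap, with all *AGO2* knockout samples below all wild-type samples, for 18 members (42.9%) and for 18.6% of all genes. The number of members called lower rested on single samples: it was 37 without wild-type replicate 3, 2 without wild-type replicate 2 and 8 without wild-type replicate 1. It was 9, 2 and 5 without *AGO2* knockout replicate 1, 2 or 3. The share of all genes tested called lower moved too. It was 12.6%, 5.9% and 9.75% without these wild-type samples and 10.4%, 4.85% and 5.63% without these *AGO2* knockout samples, in the same orders. *ATF3* and *CHAC1* were the members called under all 23 alternatives. The same test at an unadjusted p under 0.05 found 31 members lower and 1 higher, and 35.5% of all genes in either direction.

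In *AGO1/2* knockout cells 4 members were called lower, namely *ATF3*, *PPP1R15A*, *ALDH18A1* and *SLC38A2*, and 0 higher, against 8.35% and 8.37% of all genes tested. The median log2 fold change of members was -0.55. All 3 samples lay below all wild-type samples for 3 members (*ATF3*, *SHMT2* and *ALDH18A1*), or 7.14%, against 14.3% of all genes. The count was 14 without *AGO1/2* knockout replicate 3, the sample that was high for 39 members, and 19 without wild-type replicate 3. It was 2 without *AGO1/2* knockout replicate 1, 1 without *AGO1/2* knockout replicate 2, and 2 without wild-type replicate 1 or 2. *ATF3* was called under all 23 alternatives.

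No member was called by edgeR in *AGO1* knockout cells, where 5.5% of all genes tested were called lower and 3.17% higher. At an unadjusted p under 0.05 there were 4 members, 3 lower and 1 higher, while 22.6% of all genes reached that level, and DESeq2 called 1 member. No member had all 3 samples below all wild-type samples, as 12.9% of all genes did. The median log2 fold change of the members was -0.17, and it became 0.18 without wild-type replicate 2 and -0.53 without wild-type replicate 3. Without the latter sample 3 members were called lower. The direction of the members in this line thus changed with a single sample.

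**Figure D2:**
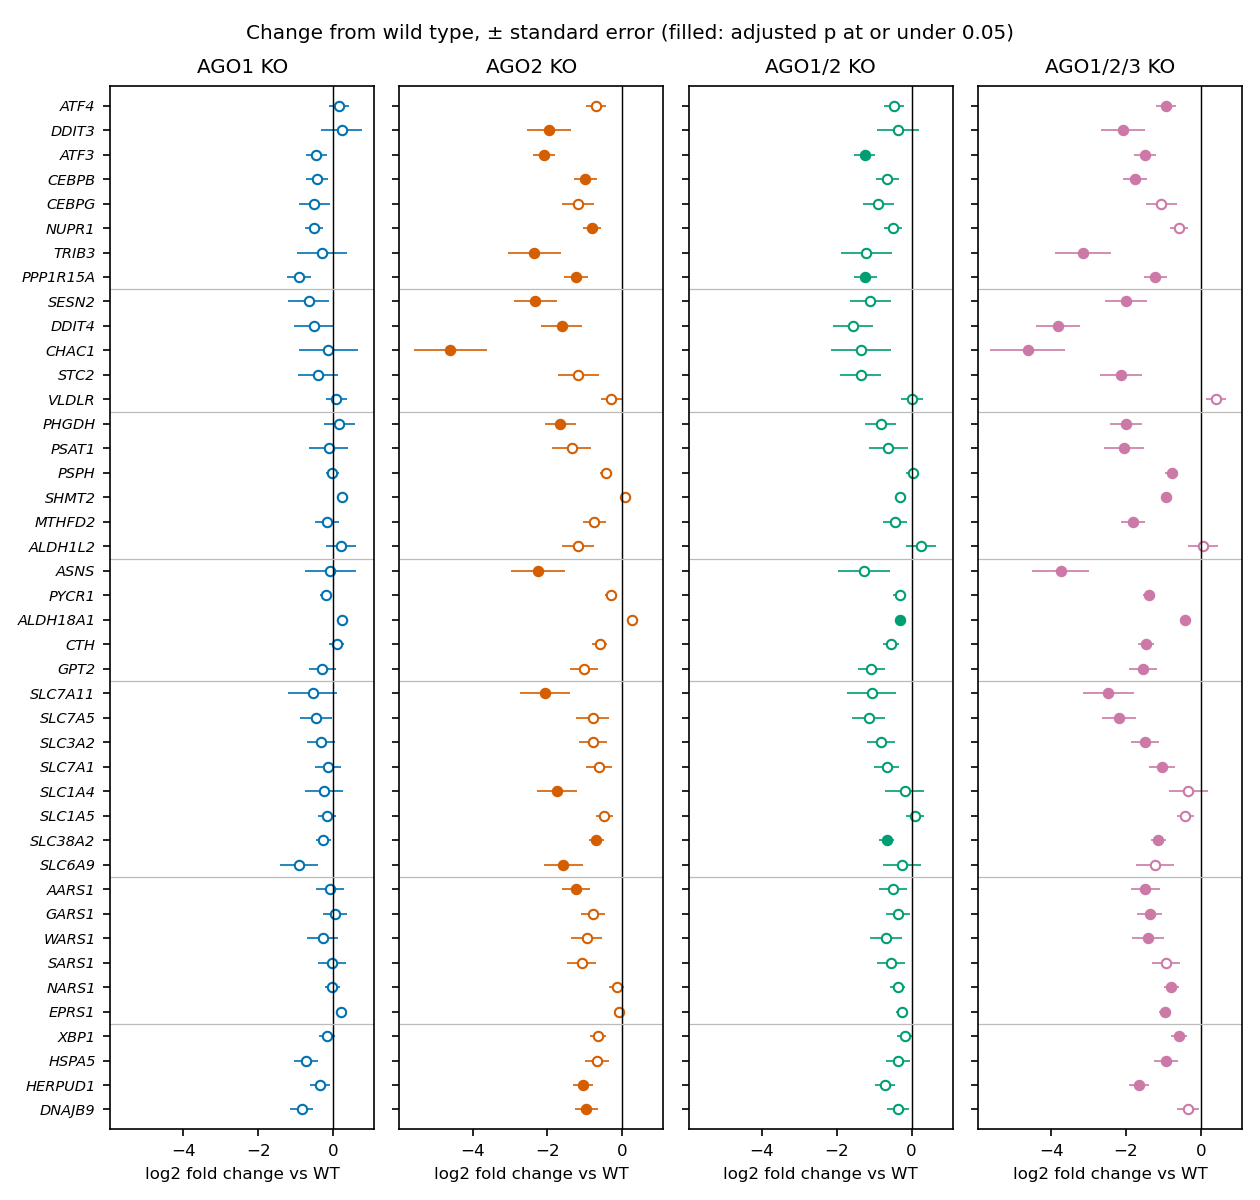
Log2 fold change against wild-type cells (x axis) of each of 42 members (y axis, in the order of the heat map) in the 4 knockout lines, with the standard error of the edgeR model as bars. Filled points passed an adjusted p of 0.05 and open points did not, with 0 filled without *AGO1*, 18 without *AGO2*, 4 without *AGO1/2* and 33 without *AGO1/2/3*, all of them to the left of 0.

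Among the transcription factors and feedback regulators, 6 of 8 were called lower in *AGO2* knockout cells, 2 in *AGO1/2* and 6 in *AGO1/2/3* knockout cells. The shares of all genes tested called lower in these lines were 10.8%, 8.35% and 19.8%. *ATF4* (ENSG00000128272, chromosome 22, 39519695 to 39522683 on GRCh38) had 445, 444 and 222 CPM in wild-type cells and 289, 524 and 424 CPM in the *AGO1* line. It had 206, 239.5 and 236 CPM without *AGO2*, 229.5, 193 and 379.7 CPM without *AGO1/2* and 196, 193 and 191 CPM without *AGO1/2/3*. The 3 *AGO1/2/3* knockout samples were nearly equal and lay below the lowest wild-type sample, which was 1.14 times the highest of them. The log2 fold change of -0.94 in this line (standard error 0.27, adjusted p = 0.0122 in the edgeR test) was called, those of -0.70 in *AGO2* and -0.47 in *AGO1/2* knockout cells were not (adjusted p = 0.0797 and 0.276), and that between *AGO1/2/3* and *AGO1/2* knockout cells was not either (adjusted p = 0.248).

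*DDIT3*, which encodes the stress factor CHOP, had 27.01, 35.2 and 9.29 CPM in wild-type cells, 12.01, 32.96 and 38.99 CPM in the *AGO1* line and 8.68, 8.04 and 39.1 CPM in the *AGO1/2* line. It was lower in every sample of the *AGO2* (5.89, 5.92 and 6.61 CPM) and *AGO1/2/3* knockout lines (5.97, 5.01 and 5.80 CPM) than in any other sample. These were changes of 3.88-fold and 4.25-fold (adjusted p = 0.0308 and 0.0104 in the edgeR test). *TRIB3*, a pseudokinase that restrains ATF4, spanned 99.6, 135 and 18.03 CPM in wild-type cells, so that 1 wild-type sample stood at the level of the *AGO2* knockout samples (15.1, 17.9 and 16.6 CPM). Its levels were 23.3, 97.4 and 85.4 CPM without *AGO1*, 14.96, 14.1 and 80.6 CPM without *AGO1/2* and 8.70, 9.53 and 10.2 CPM without *AGO1/2/3*. The *AGO1/2/3* knockout samples lay below all others, with a log2 fold change of -3.15 against wild-type cells (standard error 0.74, adjusted p = 0.00323 in the edgeR test).

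*ATF3*, a stress-induced repressor and activator, had 60.00, 66.3 and 31.5 CPM in wild-type and 33.8, 32.4 and 49.3 CPM in the *AGO1* line. It had 13.4, 11.3 and 12.4 CPM in the *AGO2* line, 21.7, 18.3 and 26.2 CPM in the *AGO1/2* line and 26.8, 12.3 and 16.8 CPM in the *AGO1/2/3* line. All samples of these 3 lines were below all wild-type samples, and the lowest level was that of the *AGO2* line (4.26-fold below wild type, adjusted p = 0.000497 in the edgeR test). *AGO1/2* knockout cells had more *ATF3* RNA than *AGO2* knockout cells (log2 difference 0.84, adjusted p = 0.045 in the edgeR test). *PPP1R15A*, the phosphatase subunit that ends the response by restoring eIF2 alpha, was called lower in 3 lines (log2 fold changes of -1.23, -1.23 and -1.22). It had 90.3, 164 and 58.97 CPM in wild-type cells, 45.8, 43.98 and 43.4 CPM without *AGO2*, 41.1, 32.03 and 60.2 CPM without *AGO1/2* and 52.7, 37.5 and 44.4 CPM without *AGO1/2/3*. The *AGO1/2* samples overlapped the wild-type samples and those of the other 2 lines did not. Its levels of 37.8, 58.9 and 69.9 CPM without *AGO1* gave a log2 fold change of -0.91 that was not called (adjusted p = 0.087 in the edgeR test).

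*CEBPB*, a partner of ATF4 on CARE elements, had 51.2, 68.1 and 29.9 CPM in wild-type cells, 22.5, 44.2 and 44.6 CPM in the *AGO1* line, 24.3, 25.5 and 25.3 CPM in the *AGO2* line and 25.4, 23.4 and 46.6 CPM in the *AGO1/2* line. The 14.8, 13.8 and 15.4 CPM of the *AGO1/2/3* knockout samples were the lowest of all, 3.39-fold below wild type (adjusted p = 0.000325 in the edgeR test), and they also fell below *AGO1/2* knockout cells (adjusted p = 0.0167). The other 2 regulators were *CEBPG*, a further dimer partner, which was not called in any line (log2 fold changes from -1.18 to -0.50), and *NUPR1*, a small stress-induced chromatin protein, which was called lower in *AGO2* knockout cells (-0.80) at 2.68 to 7.08 CPM in all samples.

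The stress effectors held the 2 largest changes of all members in *AGO1/2/3* knockout cells, in *CHAC1* and *DDIT4*. *CHAC1*, a glutathione-degrading enzyme (ENSG00000128965, chromosome 15, 40952962 to 40956512), had 21.3, 45.1 and 1.84 CPM in wild-type cells and 9.99, 27.9 and 24.98 CPM in the *AGO1* line. It had 0.672, 1.09 and 1.06 CPM in the *AGO2* line, 2.85, 3.14 and 20.9 CPM in the *AGO1/2* line and 0.919, 1.19 and 0.644 CPM in the *AGO1/2/3* line. The wild-type samples alone spanned 24.5-fold, yet the lowest was 1.69 times the highest *AGO2* knockout sample and 1.54 times the highest *AGO1/2/3* knockout sample. The log2 fold changes were -4.59 (standard error 0.98, adjusted p = 0.00714) and -4.63 (standard error 1.01, adjusted p = 0.00176) in the edgeR test. *AGO1/2* knockout cells exceeded *AGO2* knockout cells (3.24, adjusted p = 0.0247 in the edgeR test), though 2 of the 3 *AGO1/2* samples were near 3 CPM and the other near 21.

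*SESN2*, a stress-induced inhibitor of the growth kinase complex mTORC1, had 41.2, 94.8 and 10.7 CPM in wild-type cells, 19.6, 36.8 and 37.1 CPM without *AGO1*, 8.37, 9.68 and 11.3 CPM without *AGO2*, 16.2, 12.03 and 40.01 CPM without *AGO1/2* and 12.8, 12.96 and 10.98 CPM without *AGO1/2/3*. Wild-type replicate 3 stood within the range of the *AGO2* line and below all samples of the *AGO1/2/3* line, so that the groups overlapped, and the calls (-2.32 and -1.996) were lost without wild-type replicate 2. *STC2*, a secreted glycoprotein, was called lower in *AGO1/2/3* knockout cells (-2.14, adjusted p = 0.00692 in the edgeR test). *VLDLR*, a lipoprotein receptor, was low at 0.415 to 1.05 CPM and not called in any line, with the highest log2 fold change of the members in *AGO1/2/3* knockout cells (0.41).

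*DDIT4* encodes REDD1, an inhibitor of mTORC1 that is induced by ATF4 and also by hypoxia, glucocorticoids and DNA damage. Its levels (ENSG00000168209, chromosome 10, 72273919 to 72276036) were 150.2, 324 and 122 CPM in wild-type cells, 73.5, 166 and 179.5 CPM in the *AGO1* line, 29.6, 49.2 and 115 CPM in the *AGO2* line, 46.5, 34.1 and 122.7 CPM in the *AGO1/2* line and 16.7, 14.1 and 11.4 CPM in the *AGO1/2/3* line. The line means, with SD over 3 replicates, ordered by level, were 199 ± 109.5 CPM in wild-type cells, 139.6 ± 57.7 CPM without *AGO1*, 67.8 ± 47.9 CPM without *AGO1/2*, 64.6 ± 44.7 CPM without *AGO2* and 14.1 ± 2.66 CPM without *AGO1/2/3*. Among neighbours in this order *AGO1* knockout and wild-type cells did not differ beyond their spread (adjusted p = 0.623 in the edgeR test), nor did *AGO1/2* and *AGO1* knockout cells (adjusted p = 0.199) or *AGO1/2* and *AGO2* knockout cells (adjusted p = 0.943), and the samples of the *AGO2* and *AGO1/2/3* lines did not overlap, a pair that was not tested. *AGO1/2/3* knockout cells fell below *AGO1/2* knockout cells by 4.81-fold (adjusted p = 0.00865) and below wild-type cells by 14.1-fold (adjusted p = 0.000103, edgeR test). The lowest wild-type sample was 7.31 times the highest *AGO1/2/3* knockout sample, the widest such gap of all members. Without *AGO1/2* knockout replicate 3 the log2 difference of the triple from the double knockout was -1.55 and not called (adjusted p = 0.057 in the edgeR test). The call in *AGO2* knockout cells (-1.62, adjusted p = 0.0465 in the edgeR test) was lost under 10 of 23 alternatives, DESeq2 among them.

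The spread of *DDIT4* between replicates was large in 4 of the 5 lines. The SD of its log2 level over 3 replicates was 0.74 in wild-type cells, 0.71 without *AGO1*, 0.99 without *AGO2* and 0.96 without *AGO1/2*, and 0.28 without *AGO1/2/3*. In *AGO2* knockout cells, where 4 of the 42 members were above the 90th percentile of all genes tested, it exceeded the SD of 99.3% of all genes tested and the SD of every other member. By their median, the hypoxia genes, a list of 10 of which 9 were tested, followed another order. Their median log2 level relative to the wild-type mean was -0.44, -0.58 and 1.11 in the wild-type samples and 0.68, 0.24 and 0.78 in the *AGO2* knockout samples, while it lay between -0.97 and -0.42 in the other 9 samples. Wild-type replicate 3, with the highest such median, had the least *DDIT4* RNA of its line. *AGO2* knockout replicates 1 and 3, with similar medians (0.68 and 0.78), had the least and the most *DDIT4* RNA of theirs. *VEGFA* departed from the median, with 81.6, 200.1 and 69.95 CPM in wild-type cells, while the other hypoxia genes tested were highest in wild-type replicate 3 of their line. *ADM* was called higher in *AGO2* knockout cells (log2 fold change 0.95), and *VEGFA*, *PDK1*, *ANKRD37* and *P4HA1* fell without *AGO1/2/3*. *VEGFA*, *PDK1* and *ANKRD37* were also called lower without *AGO1/2*. The part of the hypoxia response in the *DDIT4* levels was not tested.

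**Figure D3:**
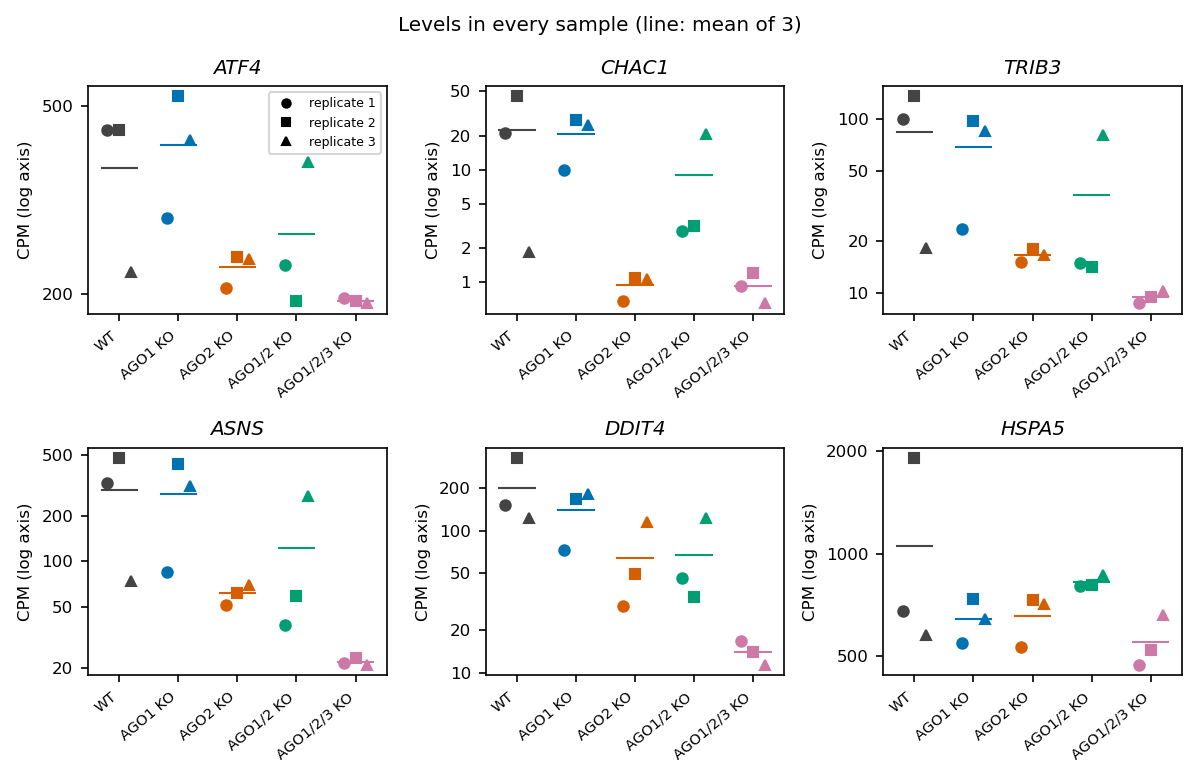
Levels in CPM (y axis, logarithmic) of 6 members in every sample of the 5 lines (x axis), with circles, squares and triangles for replicates 1, 2 and 3 and a bar at the mean of the 3. In *ASNS*, *TRIB3*, *CHAC1* and *ATF4* wild-type replicate 3 and *AGO1* knockout replicate 1 are the lowest of their lines and *AGO1/2* knockout replicate 3 is the highest, *DDIT4* is also spread in the *AGO2* line, and *HSPA5* stands out in wild-type replicate 2 at 1905 CPM.

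Of 6 enzymes of serine synthesis and mitochondrial one-carbon metabolism, 5 were called lower in *AGO1/2/3* knockout cells (median log2 fold change -1.37) and 1 in *AGO2* knockout cells (median -0.97, with 5 of 6 below 0). The shares of all genes tested called lower were 19.8% and 10.8%, and the 1 call of 6 is near the latter. *PHGDH*, the first enzyme of serine synthesis, had 139, 160.3 and 63.3 CPM in wild-type cells, 61.1, 182 and 166 CPM in the *AGO1* line, 42.8, 31.8 and 40.4 CPM in the *AGO2* line, 40.2, 51.8 and 114 CPM in the *AGO1/2* line and 30.7, 30.7 and 28.8 CPM in the *AGO1/2/3* line. Both the *AGO2* and the *AGO1/2/3* line lay below all wild-type samples, with log2 fold changes of -1.66 and -2.01 (adjusted p = 0.016 and 0.00141 in the edgeR test). The next enzyme of the pathway, *PSAT1*, had a log2 fold change of -2.06 in *AGO1/2/3* knockout cells, and *PSPH*, the last, of -0.78. *SHMT2*, which makes glycine from serine in mitochondria, varied little between replicates and fell by 0.94 on the log2 scale (standard error 0.12, adjusted p = 1.96e-05 in the edgeR test), with wild-type levels of 149.8, 132 and 122.8 CPM against 69.9, 68.7 and 72.4 CPM. *MTHFD2*, the folate enzyme that follows it, had a log2 fold change of -1.81. *PSPH*, *SHMT2* and *MTHFD2* were also lower in *AGO1/2/3* than in *AGO1/2* knockout cells, under all 23 alternatives. *ALDH1L2*, a mitochondrial folate enzyme, was not called against wild type in any line and had 5.23, 5.15 and 4.81 CPM in the *AGO1/2/3* line, within the wild-type range.

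Of the other amino acid enzymes all 5 tested were called lower in *AGO1/2/3* knockout cells, against 19.8% of all genes tested. *ASNS*, asparagine synthetase (ENSG00000070669, chromosome 7, 97851677 to 97872542), whose CARE is shown above, had 326, 479 and 74.5 CPM in wild-type and 85.2, 437 and 314 CPM in the *AGO1* line. It had 51.7, 62.4 and 70.5 CPM in the *AGO2* line, 38.3, 58.9 and 271 CPM in the *AGO1/2* line and 21.6, 23.2 and 20.9 CPM in the *AGO1/2/3* line. The *AGO1/2/3* knockout samples were within 1.11 times of each other and the lowest wild-type sample was 3.21 times the highest of them, a 13.4-fold difference of the fitted means (standard error 0.77 on the log2 scale, adjusted p = 0.00111 in the edgeR test). *AGO1/2/3* were also below *AGO1/2* knockout cells (log2 difference -2.48, adjusted p = 0.0234 in the edgeR test), a call that was lost without *AGO1/2* knockout replicate 3, where the difference was -1.18, and without any 1 of the *AGO1/2/3* knockout samples. *PYCR1*, the last enzyme of proline synthesis, had the smallest adjusted p of the members (9.2e-06) with a log2 fold change of -1.38. *CTH*, which makes cysteine from cystathionine, had -1.46 and *GPT2*, the mitochondrial alanine transaminase, -1.55.

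*ALDH18A1*, the first enzyme of proline synthesis, had 92.9, 89.7 and 109 CPM in wild-type cells and did not share the replicate order of the others, being highest in wild-type replicate 3. It had 121, 119 and 105 CPM without *AGO1* and 107, 125 and 118 CPM without *AGO2*, and 77.5, 78.8 and 78.5 CPM without *AGO1/2* and 66.5, 75.4 and 75.1 CPM without *AGO1/2/3*. The double and triple knockout samples lay below all others. *AGO1/2* knockout cells were lower than each single knockout line (log2 differences -0.56 and -0.58, adjusted p = 0.000996 and 0.000847 in the edgeR test), while the call against wild type (-0.31) was lost under 12 of 23 alternatives. *CBS*, cystathionine beta-synthase, had 0 to 9 counts per sample and was not tested. The GRCh38 reference holds a near-identical copy of this gene, so reads could also be split between them. The low counts therefore do not show that the gene is silent.

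Among the 8 amino acid transporters 5 were called lower in *AGO1/2/3* and 4 in *AGO2* knockout cells, against 19.8% and 10.8% of all genes tested. *SLC7A11*, which imports cystine, had 363, 414 and 58.9 CPM in wild-type cells, 69.8, 298 and 205 CPM in the *AGO1* line, 44.1, 79.2 and 76.00 CPM in the *AGO2* line, 56.9, 71.8 and 272 CPM in the *AGO1/2* line and 42.5, 51.01 and 57.5 CPM in the *AGO1/2/3* line. Its lowest wild-type sample was only 1.03 times the highest *AGO1/2/3* knockout sample, although the fit gave a log2 fold change at -2.47 (standard error 0.69, adjusted p = 0.00936 in the edgeR test). *SLC7A5* and *SLC3A2*, the subunits of the leucine transporter LAT1, had log2 fold changes of -2.19 and -1.49 in the same line, and *SLC7A1*, which carries arginine and lysine, of -1.03. *SLC38A2*, the member with the most counts in 13 of the 15 samples (*HSPA5* in the other 2) and a carrier of small neutral amino acids, was lower in 3 lines, with 1720.4, 1791 and 1226 CPM in wild-type cells, 1138, 1292 and 1544 CPM in the *AGO1* line, 999.9, 935 and 991 CPM in the *AGO2* line, 718, 929.8 and 1352 CPM in the *AGO1/2* line and 806, 671 and 680.1 CPM in the *AGO1/2/3* line. The *AGO2* and *AGO1/2/3* knockout samples lay below all wild-type samples, and the *AGO1/2* samples overlapped them.

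Not all transporters were low without *AGO1/2/3*. *SLC1A4*, a carrier of alanine, serine and cysteine with a CARE in its window, had 19.7, 28.8 and 4.64 CPM in wild-type and 13.4, 14.3 and 14.4 CPM in the *AGO1/2/3* line, a log2 fold change of -0.33 that was not called (adjusted p = 0.648 in the edgeR test), and it was called lower in *AGO2* knockout cells (-1.75). *SLC1A5*, the glutamine carrier, was not called in any line, with -0.41 in *AGO1/2/3* knockout cells. *SLC6A9*, a glycine transporter, had 12.3, 19.3 and 3.08 CPM in wild-type cells, 2.99, 7.45 and 8.00 CPM in the *AGO1* line, 3.07, 4.21 and 4.28 CPM in the *AGO2* line, 6.41, 6.14 and 16.4 CPM in the *AGO1/2* line and 4.34, 5.22 and 5.29 CPM in the *AGO1/2/3* line. Its log2 fold change of -0.91 in *AGO1* knockout cells was the largest decrease of a member in that line and was not called (adjusted p = 0.321 in the edgeR test), and the 1 call was in *AGO2* knockout cells (-1.58, adjusted p = 0.0459).

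The 6 tRNA synthetases, which load amino acids onto tRNAs, fell in *AGO1/2/3* knockout cells for 5 genes, where 19.8% of all genes tested were called lower. *AARS1*, for alanine, had 334, 572 and 167 CPM in wild-type cells, 213, 409 and 398 CPM in the *AGO1* line, 132, 159 and 165 CPM in the *AGO2* line, 175, 190.2 and 392 CPM in the *AGO1/2* line and 129.5, 126 and 130.1 CPM in the *AGO1/2/3* line. Both low lines were below all wild-type samples, with log2 fold changes of -1.24 and -1.48 (adjusted p = 0.0334 and 0.00537 in the edgeR test). *GARS1* (-1.37), *WARS1* (-1.41), *EPRS1* (-0.95) and *NARS1* (-0.79) were also called lower without *AGO1/2/3*, for glycine, tryptophan, glutamate with proline, and asparagine. *SARS1*, for serine, had -0.94 and was not called (adjusted p = 0.0595 in the edgeR test). *GARS1* and *EPRS1* were also lower in *AGO1/2/3* than in *AGO1/2* knockout cells, the former call being lost under 4 of 23 alternatives, among them without *AGO1/2* knockout replicate 3.

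The 4 ER stress genes followed a partly different pattern. *HSPA5*, the main ER chaperone (BiP), had 679, 1905 and 579 CPM in wild-type cells, 548, 736 and 644 CPM in the *AGO1* line, 533, 734 and 709.8 CPM in the *AGO2* line, 472, 522 and 662 CPM in the *AGO1/2/3* line and 806, 810.4 and 865 CPM in the *AGO1/2* line, where the 3 samples were within 1.07 times of each other. A single wild-type sample, replicate 2, was therefore high, and the call in *AGO1/2/3* knockout cells (-0.93) was lost without it (-0.21, adjusted p = 0.359 in the edgeR test) and under 3 other alternatives. *DNAJB9*, an ER co-chaperone, was likewise high in that sample alone (17.8, 44.6 and 16.04 CPM). It was called lower in *AGO2* (-0.96) and not in *AGO1/2/3* knockout cells (-0.35). The call in *AGO2* knockout cells was lost under 9 of 23 alternatives, with -0.36 without wild-type replicate 2 (adjusted p = 0.262 in the edgeR test) and -0.90 with the replicate block (adjusted p = 0.0537). *XBP1*, the factor spliced on ER stress, had 59.9, 96.1 and 46.1 CPM in wild-type cells, 47.2, 73.3 and 60.8 CPM in the *AGO1* line, 43.5, 42.1 and 43.3 CPM in the *AGO2* line, 53.96, 55.1 and 70.1 CPM in the *AGO1/2* line and 39.2, 42.9 and 53.2 CPM in the *AGO1/2/3* line. It had a log2 fold change of -0.58 in *AGO1/2/3* knockout cells (adjusted p = 0.0481 in the edgeR test), a call lost under 9 of 23 alternatives.

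*HERPUD1*, a component of ER-associated degradation whose window holds both a CARE and an ERSE-II, had 75.2, 119.6 and 46.4 CPM in wild-type cells, 47.1, 69.3 and 73.8 CPM in the *AGO1* line, 35.3, 36.2 and 45.9 CPM in the *AGO2* line, 48.5, 39.04 and 61.2 CPM in the *AGO1/2* line and 25.6, 24.00 and 26.7 CPM in the *AGO1/2/3* line. Its *AGO1/2/3* knockout samples were below every other sample, at -1.66 on the log2 scale relative to wild type (standard error 0.27, adjusted p = 0.00017 in the edgeR test). In the *AGO2* line it had -1.04 (adjusted p = 0.0171 in the edgeR test). Taking the 4 genes of this group, the median log2 level of wild-type replicate 1 was -0.25, of replicate 2 0.80 and of replicate 3 -0.60, whereas the 38 other members had 0.20, 0.68 and -0.83. In *AGO1/2* knockout cells the group had -0.24, -0.19 and -0.17, without the high replicate 3 of the 38 others (-0.89, -0.90 and 0.04).

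The median SD of log2 levels over 3 replicates was 0.74 for members and 0.24 for all genes tested in wild-type cells, 0.45 and 0.21 in the *AGO1* line, and 0.57 and 0.19 in the *AGO1/2* line. It was 0.19 and 0.17 in *AGO2*, and 0.13 and 0.15 in *AGO1/2/3* knockout cells, where members varied about as much as other genes. In wild-type cells 28 of 42 members lay above the 90th percentile of all genes, as did 15 in the *AGO1* line, 4 in the *AGO2* line, 23 in the *AGO1/2* line and 2 in the *AGO1/2/3* line. *CHAC1* had the largest SD of all members in wild-type cells (2.39) and *AGO1/2* knockout cells (1.61). *ALDH18A1*, by contrast, had SDs between 0.01 and 0.15 in the 5 lines.

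**Figure D4:**
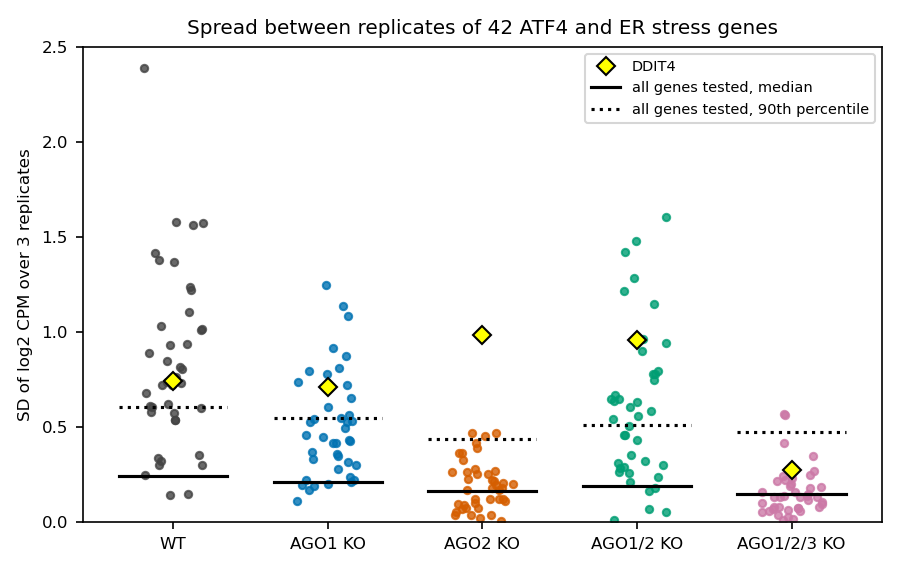
SD of log2 CPM over the 3 replicates (y axis) of each of 42 members, 1 point per gene, in the 5 lines (x axis). *DDIT4* is a yellow diamond, and black lines give the median (solid) and the 90th percentile (dotted) of all 22842 genes tested. In *AGO2* knockout cells *DDIT4* sits alone at 0.99, and in *AGO1/2/3* knockout cells its SD is 0.28.

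Other genes of the pathway were taken from lists and described by counts. Of 24 further described ATF4 targets, 22 were tested, and 13 were called lower and 2 higher in *AGO1/2/3* knockout cells, 6 lower and 0 higher in *AGO2* and 4 lower and 0 higher in *AGO1/2* knockout cells. The shares of all genes tested called lower and higher were 19.8% and 20.3%, 10.8% and 8.55%, and 8.35% and 8.37% in these lines. The largest change in this list was in *GDF15*, a secreted stress hormone, with 133, 298 and 61.4 CPM in wild-type cells and 8.14, 7.64 and 5.76 CPM in the *AGO1/2/3* line, which is -4.51 on the log2 scale (standard error 0.52, adjusted p = 6.66e-06 in the edgeR test). In *AGO2* knockout cells the largest was in *PCK2*, the mitochondrial phosphoenolpyruvate carboxykinase (-2.53). The 2 genes called higher in *AGO1/2/3* knockout cells were *CLIC4* (1.84) and *SLC7A6* (0.62). As for the members, the list's median was highest in wild-type replicate 2 and in *AGO1/2* knockout replicate 3, at 0.01, 0.52 and -0.52 in wild-type cells and -0.54, -0.61 and 0.13 in *AGO1/2* knockout cells.

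The genes upstream of ATF4 were taken as another list. Over 15 genes for eIF2 kinases, subunits of eIF2 and of its exchange factor eIF2B, and eIF2 phosphatase, the sample medians lay between -0.09 and 0.19 in all 15 samples. In *AGO1/2/3* knockout cells 4 were called higher and 2 lower, near the shares of all genes tested (20.3% and 19.8%). The largest change was in *EIF2S2*, the beta subunit of eIF2 (-0.73). In *AGO2* knockout cells 2 were higher, the eIF2B subunit *EIF2B1* (0.60) with the larger change, and in *AGO1/2* knockout cells 2 were higher, *EIF2AK2*, the kinase PKR, with the larger change (0.74). Of all genes tested 8.55% and 8.37% were called higher in these 2 lines. Of the 8 synthetases not usually counted as ATF4 targets, 3 were higher in *AGO2* knockout cells (largest *FARSA*, 0.51), 3 were lower in *AGO1/2/3* knockout cells (largest *FARSB*, -0.54), 1 was lower in *AGO1/2* (*FARSB*, -0.50) and 1 was higher in *AGO1* knockout cells (*VARS1*, 0.44). The shares of all genes tested called in the same directions were 8.55%, 19.8%, 8.35% and 3.17%.

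The counts of the remaining lists stand beside the shares of all genes tested, which in *AGO1/2/3* knockout cells were 20.3% higher and 19.8% lower, in *AGO1/2* 8.37% and 8.35%, in *AGO2* 8.55% and 10.8% and in *AGO1* knockout cells 3.17% and 5.5%. Among 7 sensors of the unfolded protein response, *ERN1*, which encodes the sensor IRE1, had the largest called change in *AGO2* (-1.26) and *AGO1/2/3* knockout cells (-1.25), with 39.3, 91.3 and 26.1 CPM in wild-type and 21.9, 23.1 and 20.7 CPM in the *AGO1/2/3* line. Of 20 ER chaperones and degradation factors, 4 were called higher and 1 lower in *AGO1/2/3*, 3 higher and 1 lower in *AGO1/2*, 3 higher and 2 lower in *AGO2* and 2 lower in *AGO1* knockout cells, where the 4 higher in *AGO1/2/3* knockout cells are a share near that of all genes. *EDEM1*, which acts in ER-associated degradation, had the largest change in *AGO1/2/3* (53.2 ± 17.3 CPM in wild-type cells and 26.6 ± 2.59 CPM here, mean and SD of 3) and *AGO1* knockout cells (-0.75 on the log2 scale), *CALR*, the chaperone calreticulin, in *AGO1/2* (0.72), and *SDF2L1*, an ER co-factor, in *AGO2* knockout cells (0.90). Of 12 other serine, one-carbon, proline and transaminase enzymes 3 rose and 3 fell without *AGO1/2/3*, also near the shares of all genes, the largest change being in *GPT*, the cytosolic alanine transaminase (-2.16), which was below 1.1 CPM in all samples.

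**Figure D5:**
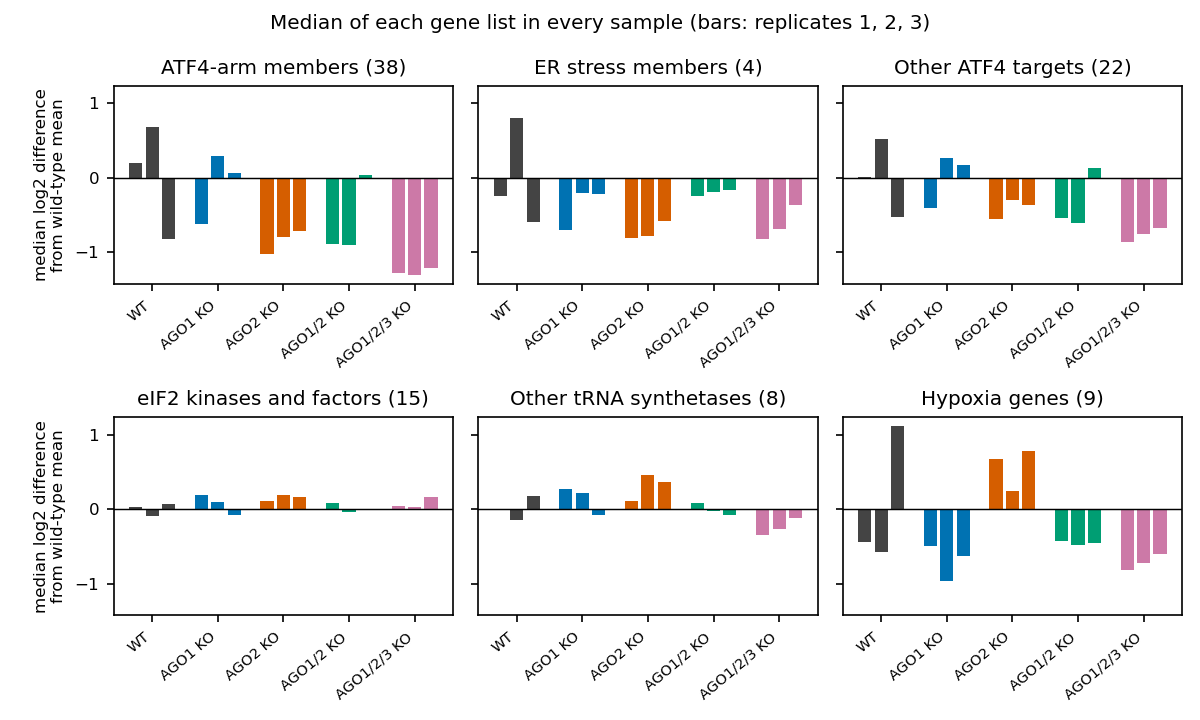
Median over genes of the log2 level relative to each gene's wild-type mean (y axis) in every sample, with bars for replicates 1, 2 and 3 of each line (x axis), for 6 gene lists. In the 38 members outside the ER stress group and the 22 other ATF4 targets wild-type replicate 2 is the highest and replicate 3 the lowest of their line, the eIF2 genes stay between -0.09 and 0.19, and the hypoxia genes are highest in wild-type replicate 3 (1.11) and in the *AGO2* knockout samples.

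The double and triple knockout lines were compared directly, since a call in one line and not in another does not show a difference. In *AGO1/2/3* relative to *AGO1/2* knockout cells 13 of 42 members were called lower and 0 higher, against 10.0% and 11.9% of all genes tested, with a median log2 difference of -0.71. They were *DDIT3*, *CEBPB*, *DDIT4*, *CHAC1*, *PSPH*, *SHMT2*, *MTHFD2*, *ASNS*, *PYCR1*, *CTH*, *GARS1*, *EPRS1* and *HERPUD1*. Without *AGO1/2* knockout replicate 3 the count was 6, and *PSPH*, *SHMT2*, *MTHFD2*, *PYCR1*, *CTH* and *EPRS1* were called under all 23 alternatives. It was 8 and 7 without *AGO1/2/3* knockout replicate 1 or 2. Against *AGO1* knockout cells, *AGO1/2* knockout cells had 4 members lower (*SHMT2*, *ALDH18A1*, *CTH* and *EPRS1*) and 0 higher, where 7.95% and 11.5% of all genes were called, and 15 lower without *AGO1/2* knockout replicate 3. The count was 2 without *AGO1* knockout replicate 2 and 2 without *AGO1/2* knockout replicate 1 or 2. Against *AGO2* knockout cells they had 4 higher (*ATF3*, *CHAC1*, *ALDH1L2* and *SLC1A4*) and 2 lower (*SHMT2* and *ALDH18A1*), where 12.8% and 11.1% of all genes were called. This count rested on single samples as well, with 0 higher without *AGO2* knockout replicate 2 or 3 or *AGO1/2* knockout replicate 3, 1 higher without *AGO2* knockout replicate 1, 2 higher without *AGO1* knockout replicate 2 or *AGO1/2/3* knockout replicate 3, and 9 higher without wild-type replicate 2 or 3. Of the lower calls that of *ALDH18A1* held under all 23 alternatives, while that of *SHMT2* was lost without any single *AGO2* or *AGO1/2/3* knockout sample and without *AGO1/2* knockout replicate 1 or 2. Whether the changes of the single knockouts add up in the double knockout was tested as an interaction, for which 3 members were called higher and 2 lower, against 11.5% and 8.26% of all genes tested.

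The members lie on many chromosomes, and the genes around them were examined for the same comparisons. For each member the median log2 fold change of the other genes within 5 Mb on either side with a mean of at least 1 CPM was computed. In *AGO1/2/3* knockout cells these medians ranged from -0.23 to 0.38, with a median of 0.03, and in the *AGO2*, *AGO1/2* and *AGO1* lines they stayed between -0.21 and 0.22. Around *DDIT4* the median of 92 neighbours was 0.05 in *AGO1/2/3* knockout cells, and around *ASNS* that of 115 neighbours was -0.07.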

How the data were processed

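Total RNA of 15 samples, 3 per line, was sequenced after depletion of ribosomal RNA. The deposited values are estimated counts per Ensembl gene, which the authors made from reads aligned to hg38 and quantified with Salmon (STAR 2.5.3a and Salmon 0.11.0 in the submitters' processing notes, while the study's methods name other versions). About 30.8% to 33.8% of the values of a sample were not whole and were rounded. All 57875 listed genes went into library totals, which ranged from 27709971 to 45271146. Gene names and GRCh38 positions came from GENCODE release 44, which held 57167 of the identifiers and all 43 members. Promoter windows came from RefSeq (GRCh38.p14).

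Genes were filtered with edgeR's filterByExpr, scaled by TMM and fitted with edgeR 4.0.16 (R 4.3.3) as 1 mean per line over all 15 samples. Contrasts were tested by the quasi-likelihood F test with Benjamini-Hochberg adjustment over the 22842 genes tested, and a gene was called at an adjusted p of 0.05 or under. The standard error was the absolute log2 fold change divided by the root of F. Log2 sample levels used a prior count of 2. Alternatives were DESeq2 1.42.0, other scaling and filters, a replicate block, a covariate, the 6 samples of a comparison alone, and leaving out each sample in turn. The fits were also run on simulated counts, drawn independently for each gene with the same spread in every line. Those counts lacked the shared shifts of whole samples seen here, so the simulation does not bear on them. Exact permutation of a 3 against 3 design reaches a two-sided p of 0.1 at the lowest and was not used.

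All members were reported. Values in every sample were given for members called in at least 2 lines, for those with the largest absolute log2 fold change in a line, and for *ATF4* and *DDIT4*. From each list of other pathway genes the called gene with the largest absolute change was named, and the remaining names, *SHMT2*, *SLC1A4*, *ALDH1L2*, *HSPA5*, *DNAJB9*, *SLC7A6* and hypoxia genes among them, were added after their values were seen. The members, lists and tests were chosen with earlier results of these data known. The labels call the samples biological replicates and do not tell whether they were separate cultures, so the p-values measure the spread between these samples. The 8 binding (eCLIP) samples of the series were not analysed here.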

Additional observations from a re-analysis of the deposited data

Results flagged for a closer look

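For 5 of the 42 members tested, the difference of the double knockout from wild-type cells was called as other than the sum of the single knockout differences. The interaction, the log2 fold change of *AGO1/2* knockout cells minus those of both single knockouts, was tested with edgeR's quasi-likelihood test. It was called for 19.7% of all genes tested, a larger share than among the members, so these calls do not set the members apart from other genes. *ALDH18A1* had an interaction of -0.82 (adjusted p = 0.00114), with fold changes of 0.24 without *AGO1*, 0.26 without *AGO2* and -0.31 in the double knockout, and was called under all 22 alternatives. *SHMT2* had -0.61 (adjusted p = 0.0219) from 0.24, 0.06 and -0.31, and lost the call under 5 alternatives. Both were the members with the least spread in wild-type cells.

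The other 3 were positive. *ATF3* had 1.29 (adjusted p = 0.0342), from -0.45 and -2.09 in the single and -1.25 in the double knockout. *SLC6A9* had 2.23 (adjusted p = 0.0441) and *DNAJB9* 1.43 (adjusted p = 0.0298), both with lower levels in each single knockout than in the double. Their calls were lost under 8, 11 and 6 of 22 alternatives. For all 3, leaving out *AGO1* knockout replicate 1 or 2, *AGO2* knockout replicate 2 or *AGO1/2* knockout replicate 3 removed the call, and what set these samples apart was not tested.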

How the results depend on the processing

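With 3 samples per line, the counts of called members moved with single samples, and no fit at lower depth was made. With any 1 of the 15 samples removed, the members called lower ranged from 28 to 38 in *AGO1/2/3*, 2 to 37 in *AGO2*, 1 to 19 in *AGO1/2* and 0 to 3 in *AGO1* knockout cells against wild type, and those called higher from 0 to 1 in *AGO2* knockout cells. The shares of all genes tested called lower in these fits ranged from 16.8% to 21.1%, 4.85% to 12.6%, 5.8% to 8.6% and 2.45% to 5.44%, in the same order of lines. The range was 6 to 19 lower for *AGO1/2/3* against *AGO1/2*, 2 to 15 lower for *AGO1/2* against *AGO1*, 0 to 9 higher and 1 to 2 lower for *AGO1/2* against *AGO2*, and 0 to 13 higher and 1 to 2 lower for the interaction. The median log2 fold change of members ranged from -1.67 to -1.02 in *AGO1/2/3*, -1.31 to -0.56 in *AGO2*, -0.94 to -0.26 in *AGO1/2* and -0.53 to 0.18 in *AGO1* knockout cells, where it was above 0 without wild-type replicate 2 and, at 0.01, without *AGO1* knockout replicate 1.

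Other settings moved the median in *AGO1/2/3* knockout cells from -1.38 to -1.53 with total counts only, which also shifted the median of all genes by -0.08 to -0.15 against wild type, to -1.45 with at least 10 counts in every sample, to -1.43 with the 6 samples compared and to -1.22 with a covariate, the leading principal component of the samples' differences from their line means. With total counts only, 9 members were lower without *AGO1/2*, 1 without *AGO1* and 1 in the interaction. Without a filter on low counts the members lower were 31 in *AGO2*, 14 in *AGO1/2*, 2 in *AGO1*, 20 in *AGO1/2/3* against *AGO1/2* and 9 in *AGO1/2* against *AGO1* knockout cells, and those higher were 9 in *AGO1/2* against *AGO2* and 8 in the interaction. With the covariate 11 were lower in *AGO1/2*, 2 in *AGO1*, and 8 in *AGO1/2* against *AGO1* knockout cells, while 1 was higher in *AGO1*, 1 in *AGO2*, 12 in *AGO1/2* against *AGO2* and 9 in the interaction. With the 6 samples compared 9 were lower in *AGO2*, 1 in *AGO1/2*, 26 in *AGO1/2/3* against *AGO1/2* and 10 higher in *AGO1/2* against *AGO2* knockout cells. DESeq2 called 1 lower in *AGO1* and 1 higher in *AGO2* knockout cells. The cause of these differences was not tested. A member called in neither fit was taken as unchanged whatever its sign.

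The replicate numbers did not pair the samples: of 30 same-number pairs 5 correlated above 0.1 in their deviations from the line means, and 3 samples correlated best with their own number. With the number as a replicate block the median in *AGO1/2/3* knockout cells was -1.32, 32 of the 33, 15 of the 18 and 3 of the 4 calls in *AGO1/2/3*, *AGO2* and *AGO1/2* knockout cells were kept, and *AGO1/2* against *AGO2* knockout cells had 2 higher and 1 lower.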
